A study of Mus musculus with 18 samples.

Results

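Hagh, Glo1, Sod1, Sod2, Cat, Prdx1, Prdx2, Prdx3, Prdx5 and Prdx6, the genes of 10 enzymes that clear reactive carbonyls, superoxide and peroxides, were taken by symbol from the 22021 genes listed for mouse dorsal root ganglia. The set was built around Hagh, which was selected on its change of pulldown relative to input between treatments, the largest among these genes. That change and its parts are therefore given for Hagh without a test. The other 9 genes were named for their function, with earlier results of these data known. All 10 passed the filter on low values, at least 1 CPM (read counts brought to a common library total) in at least 4 of 16 pooled libraries.

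The mice carried Nav1.8-Cre, which acts in Nav1.8-expressing sensory neurons, mostly nociceptors, and the Rosa26fsTRAP allele, which tags the ribosomal protein L10a with GFP in those cells. Both alleles were shared by every group. The Nav1.8-Cre mice were on a C57BL/6J background, and male and female littermates of 8 to 12 weeks were used. Each ganglion extract gave an input library of all cell types and a TRAP library of the RNA held by anti-GFP pulldown of the tagged ribosomes. Biosamples 1 to 4 were labelled normal, and biosamples 5 to 8 came from mice given intraperitoneal paclitaxel, a microtubule-stabilising chemotherapy drug, in 4 injections of 4 mg/kg over 8 days, for a cumulative 16 mg/kg. Whether the normal mice received vehicle, and the number and sex of the animals in each biosample, are not given in the sources used here, so p-values measure the spread between these biosamples. In extracts of this kind, fewer cells of a type and less RNA per cell cannot be told apart.

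The glyoxalase pathway removes methylglyoxal, a reactive by-product of glycolysis. Glyoxalase 1, encoded by Glo1, turns the adduct of methylglyoxal and glutathione into S-D-lactoylglutathione, and glyoxalase 2, encoded by Hagh, splits that product into D-lactate and glutathione. Superoxide dismutases turn superoxide into hydrogen peroxide. Catalase and the peroxiredoxins then remove the peroxide, and most peroxiredoxins are recharged by thioredoxin. Oxidative and mitochondrial stress in sensory neurons has been studied widely in paclitaxel neuropathy.

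Hagh lies at chr17:24840143-24864450 on the plus strand of GRCm38, and Glo1 on the minus strand of the same chromosome at chr17:30584936-30626871. Sod1 lies at chr16:90220754-90226329 on the plus strand, and Prdx5 at chr19:6906697-6910106 on the minus strand. RefSeq promoter sequences of build GRCm38.p6 were matched for 9 of the 10 genes. A core of the antioxidant response element, TGANNNNGC on either strand, occurred within 250 bases before the first start site of Glo1, Sod1, Prdx1 and Prdx5, which is 4 of 9 matched genes, against 35.198% of all 32851 promoter windows of that length. The stretches free of annotated exons are shown for Hagh (chr17:24850365-24850489), about which the set was built, for Sod1 (chr16:90220512-90220753), the tested gene that passed as higher both in TRAP against input and after paclitaxel, and for Prdx1 (chr4:116685349-116685543), which was lower in the pulldown. All 3 are on the plus strand, 5′ to 3′, with matches to the core in capitals.
Hagh: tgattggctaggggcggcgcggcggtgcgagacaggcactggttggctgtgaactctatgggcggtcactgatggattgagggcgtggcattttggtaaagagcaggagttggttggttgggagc
Sod1: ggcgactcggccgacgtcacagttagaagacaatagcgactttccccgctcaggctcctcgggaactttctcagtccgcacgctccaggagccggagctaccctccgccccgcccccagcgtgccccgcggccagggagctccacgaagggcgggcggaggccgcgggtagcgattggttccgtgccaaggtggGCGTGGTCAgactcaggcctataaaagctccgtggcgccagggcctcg
Prdx1: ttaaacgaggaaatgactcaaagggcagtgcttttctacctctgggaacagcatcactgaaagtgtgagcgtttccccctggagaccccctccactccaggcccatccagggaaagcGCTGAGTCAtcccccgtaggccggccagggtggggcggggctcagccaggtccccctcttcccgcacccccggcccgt
The match begins 56 bases before the start of Sod1 and 133 bases before that of Prdx1, both on the minus strand. No match to these letters stands in the Hagh window. The Hagh stretch ends at a RefSeq start site inside the annotated gene, which has a further transcript that starts upstream, and begins at the base after Fahd1, a gene read in the other direction whose annotated start is at 24850364. A match is a run of letters and was not tested for binding.

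Input libraries held 4270000 to 14480000 reads over the listed genes and TRAP libraries 5970000 to 32710000, with 8081 to 13228 genes at 1 CPM or more in TRAP and 13152 to 14043 in input. The floor of 3 reads lay between 0.0917 and 0.7032 CPM, depending on the library, and accounts for counting error alone. Scn10a, the gene of Nav1.8, passed as higher in TRAP than in input, by 0.95 on the log2(CPM + 1) scale (SE 0.138, limma adjusted p = 1.36e-05). The summed level of 8 nociceptor markers was 6391 to 9162 CPM in TRAP and 3602 to 5767 CPM in input. Prph alone held 2925 to 7460 CPM of that sum in normal TRAP. Of the 8 markers, 2 passed as higher and 2 as lower than input in normal TRAP, and 5 as higher and 0 as lower in paclitaxel TRAP. No marker of the 9 cell type lists was at 0 in every library of a group. The macrophage marker Cd68 was at 0 CPM in normal TRAP of biosamples 1, 3 and 4. In biosample 2 it was at 0.07 CPM, below that library's floor of 0.1118 CPM. Satellite glia markers summed to 159.9 to 279.1 CPM in normal TRAP and 347.3 to 399.8 CPM in paclitaxel TRAP. Large-fibre neuron markers summed to 707.8 to 1108 CPM in normal input and 1214 to 1544 CPM in paclitaxel input, and red cell markers to 851.9 to 1196 CPM in normal input and 1615 to 3740 CPM in paclitaxel input. Their part in the results below was not tested. Normal input of biosample 2 had the highest summed CPM of the 10 genes among the input libraries, 3019, and normal TRAP of biosample 4 the lowest of all libraries, 923.9. In TRAP of biosample 7, the mean of 2 subsamples, the subsamples differed most for Prdx5, at 0.09 and 94.11 CPM, and for Prdx3, at 3.37 and 36.02 CPM.

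Levels are CPM of 3′ end reads, 1 end per transcript with no division by length. By mean level in normal TRAP the order was Prdx1, Sod1, Prdx2, Sod2, Glo1, Prdx6, Cat, Hagh, Prdx5 and Prdx3, from 469 ± 199 CPM for Prdx1 to 9.79 ± 7.94 CPM for Prdx3 (SD, n = 4), and the ranges of each pair of neighbours in that order overlapped. In paclitaxel TRAP Sod1 came first and Hagh moved above Cat, in the order Sod1, Prdx1, Prdx2, Sod2, Glo1, Prdx6, Hagh, Cat, Prdx5 and Prdx3. There the ranges of Sod2 and Glo1, of Prdx6 and Hagh, and of Hagh and Cat overlapped, and those of the other neighbours did not. Both input groups shared the order Prdx1, Sod1, Prdx2, Sod2, Glo1, Cat, Prdx6, Hagh, Prdx3 and Prdx5. In normal input only Sod2 and Glo1 among neighbours had ranges apart. In paclitaxel input these and also Prdx1 and Sod1, Glo1 and Cat, and Cat and Prdx6 had ranges apart.

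**Figure D1:**
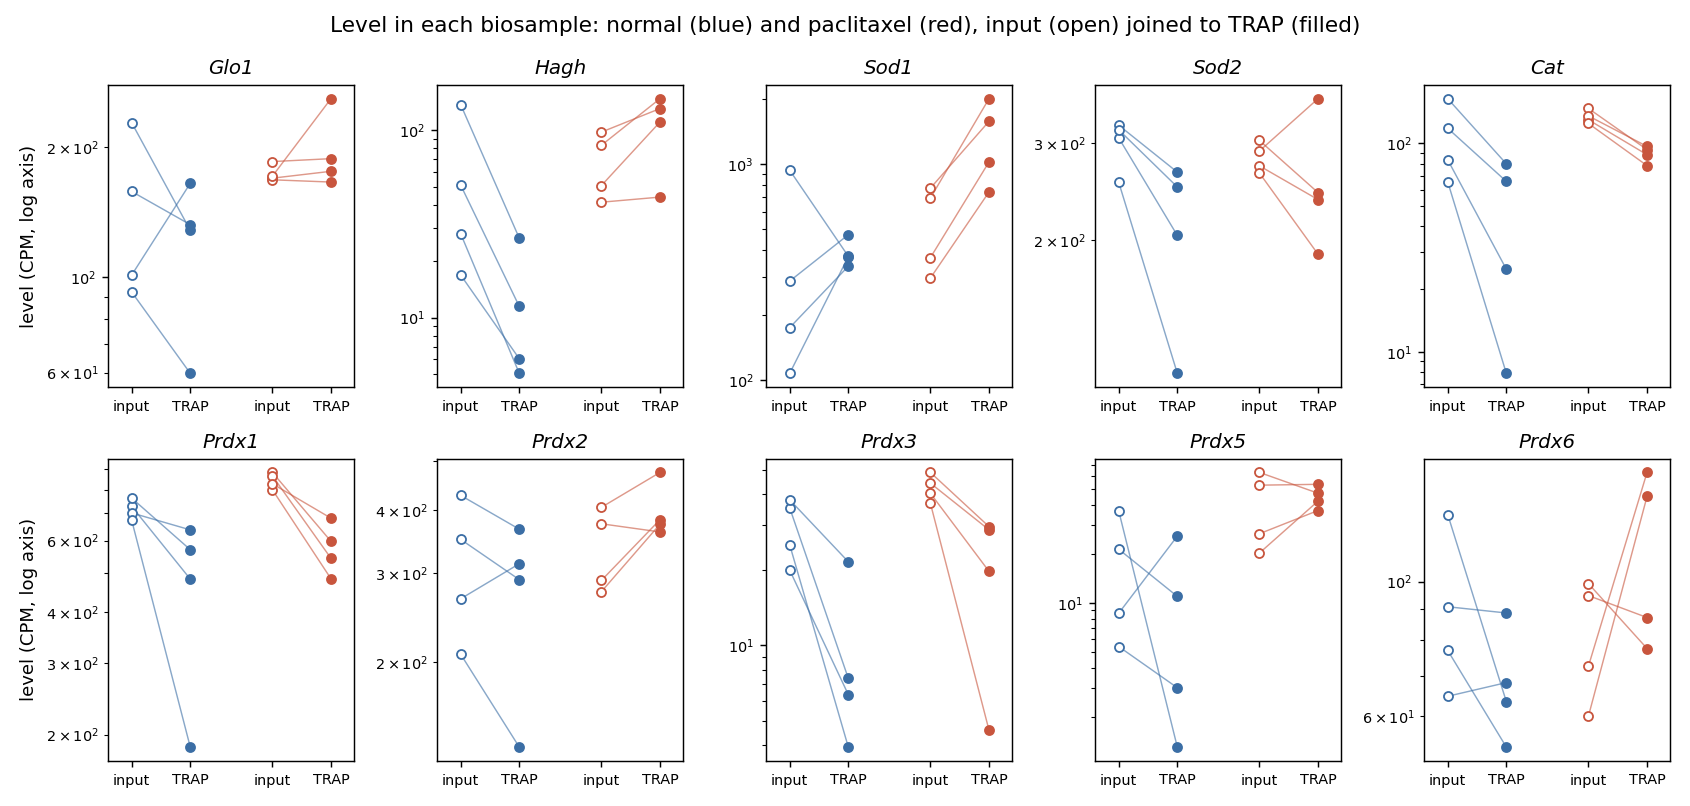
Levels of the 10 genes in CPM on a log axis, 1 point per pooled library, input (open) joined to TRAP (filled) of the same biosample, normal in blue and paclitaxel in red. Hagh in TRAP spans 5.04 to 26.5 CPM in normal and 44.0 to 147 CPM in paclitaxel biosamples, and Cat, Prdx1 and Prdx3 fall from input to TRAP in every biosample.

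Hagh was low in the normal pulldown and high in the pulldown after paclitaxel. Its level in biosamples 1 to 4 was 28.0, 137, 51.0 and 16.9 CPM in normal input and 5.04, 26.5, 11.5 and 6.03 CPM in normal TRAP. In biosamples 5 to 8 it was 50.7, 41.3, 83.1 and 97.8 CPM in paclitaxel input and 111, 44.0, 147 and 131 CPM in paclitaxel TRAP. Each normal TRAP library was below its own input, each paclitaxel TRAP library was above its own, and the lowest paclitaxel TRAP library was above the highest normal one. The difference of TRAP from input per biosample was -2.27, -2.33, -2.06 and -1.35 on the log2(CPM + 1) scale in normal and 1.11, 0.09, 0.82 and 0.41 in paclitaxel biosamples. The difference is small in biosample 6. This change of sign over all 8 biosamples was shown by 1 of the 10 genes, Hagh by choice, and by 0.732% of all genes tested. The nociceptor markers Calca and Trpv1 were among those genes. Calca stood at -0.82, -1.35, -0.55 and -1.03 in normal and at 0.92, 0.75, 1.08 and 0.39 in paclitaxel biosamples, and Trpv1 at -1.22, -1.66, -1.41 and -0.27 and at 0.25, 1.01, 1.32 and 0.33. Their part in the Hagh difference was not tested. Averaged, the log2 change of TRAP from input was -1.999 in normal ganglia (SE 0.319) and 0.61 after paclitaxel (SE 0.319), a change of pulldown relative to input of 2.61 (SE 0.451). That change was the largest among the 10 genes and, by the size of the estimate alone, ranked 22 from the top of the 14214 genes tested. No test is given for Hagh here because these values chose it.

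Between treatments, the Hagh level was higher after paclitaxel by 3.18 in TRAP (SE 0.554) and by 0.57 in input (SE 0.483) on the log2(CPM + 1) scale, and the input groups overlapped. The average of both treatments was not the value that chose Hagh, but it comes from the same libraries and the same fit. It was lower in TRAP than in input, at -0.70 on the log2 scale (SE 0.225, limma adjusted p = 0.0142). That average joins opposite differences in the 2 treatments. It no longer passed with median-ratio scaling (log2 change -0.34, adjusted p = 0.248) or with quantile normalization (log2 change -0.36, adjusted p = 0.172).

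Glo1, the enzyme before Hagh in the pathway, showed a smaller difference. Its level was 165, 128, 132 and 59.8 CPM in normal TRAP and 176, 166, 259.5 and 188 CPM in paclitaxel TRAP, and the groups did not overlap, by a narrow gap. In input it ranged from 92.4 to 228 CPM in normal and from 168 to 185 CPM in paclitaxel libraries, which overlapped. The TRAP difference of 0.77 on the log2 scale (SE 0.318) did not pass limma (adjusted p = 0.239), nor did the input difference of 0.35 (SE 0.257, adjusted p = 0.478). In the average of both treatments the difference of Glo1 between TRAP and input did not pass (log2 change -0.04, SE 0.165, adjusted p = 0.843). Its change of pulldown relative to input between treatments was 0.41 (SE 0.331), against 2.61 for Hagh.

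**Figure D2:**
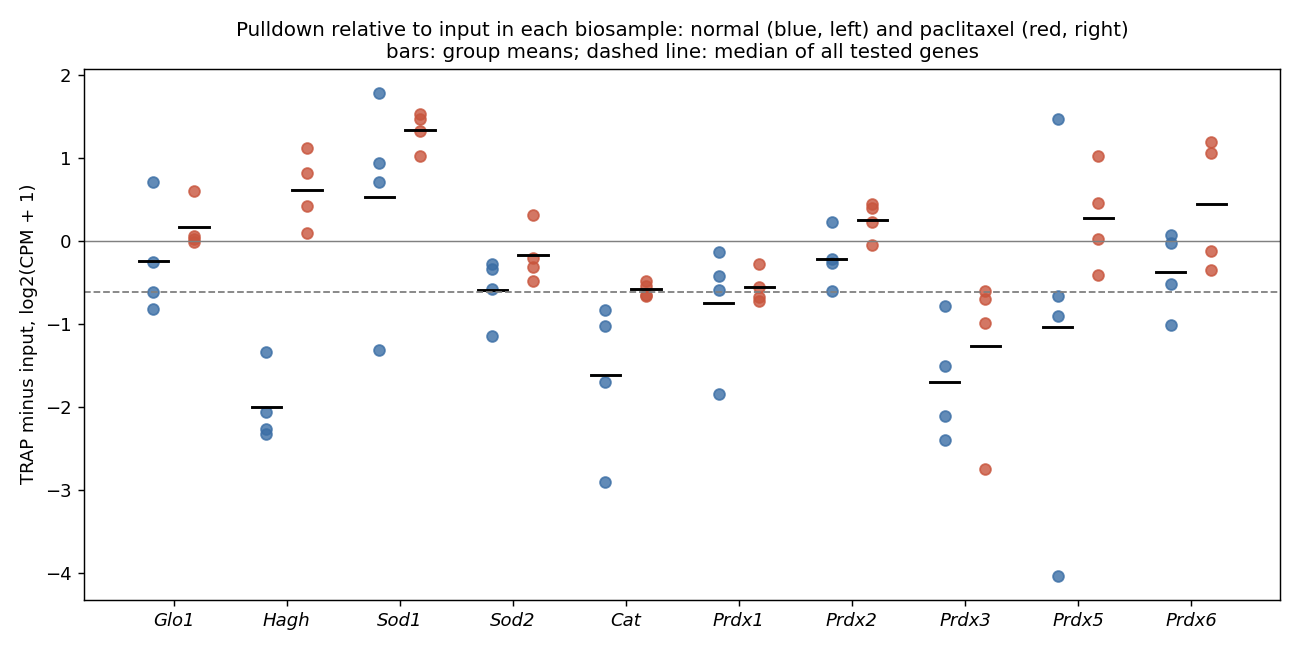
TRAP minus input for each of the 10 genes on the log2(CPM + 1) scale, 1 point per biosample, normal in blue and paclitaxel in red, with bars at the group means and a dashed line at the median of all genes tested, -0.62. Hagh lies below 0 in the 4 normal and above 0 in the 4 paclitaxel biosamples, and Cat, Prdx1 and Prdx3 lie below 0 in all 8.

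Sod1, the cytosolic copper and zinc enzyme, was the member that passed as higher in the Nav1.8 pulldown. Its level in biosamples 1 to 4 was 107, 934, 287 and 175 CPM in normal input and 372, 374, 470.2 and 336 CPM in normal TRAP. In biosamples 5 to 8 it was 368, 296, 695 and 771 CPM in paclitaxel input and 1019.8, 741, 1999.8 and 1572 CPM in paclitaxel TRAP. TRAP was above input in 7 of 8 biosamples, the exception being biosample 2, whose input library was the highest of the normal ones. On average TRAP was higher by 0.93 (SE 0.203, limma adjusted p = 0.000826) on the log2(CPM + 1) scale. After paclitaxel alone TRAP was higher by 1.33 (SE 0.287, adjusted p = 0.00209), and in normal ganglia the difference of 0.53 (SE 0.287) did not pass (adjusted p = 0.161), though without biosample 2 it was 1.14 and passed (adjusted p = 0.00062).

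Sod1 in TRAP also rose after paclitaxel, by 1.69 on the log2 scale (SE 0.303, limma adjusted p = 0.0146), with every paclitaxel TRAP library above every normal one. The level was 1333 ± 563 CPM after paclitaxel and 388 ± 57.4 CPM in normal TRAP (SD, n = 4 each). In input the difference of 0.88 (SE 0.512) did not pass (adjusted p = 0.37), and the groups overlapped through biosample 2, without which it was 1.48 (adjusted p = 0.0345). The TRAP call was lost without biosample 1, 2, 5, 7 or 8 and with no filter on low values, with adjusted p-values of 0.014 to 0.132 over the left-out biosamples and log2 changes of 1.46 to 1.93. Sod1 shares 650 bases at its 3′ end with Scaf4 on the other strand. The strand setting of the counting is not stated, so reads there cannot be told apart. Scaf4 in TRAP differed between treatments by a log2 change of -0.83, which did not pass (adjusted p = 0.551).

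Sod2, the mitochondrial manganese enzyme, was the steadier of the dismutases. It ranged from 255 to 323 CPM in normal input, from 114 to 266 CPM in normal TRAP, from 265 to 303 CPM in paclitaxel input and from 188 to 361 CPM in paclitaxel TRAP. TRAP was lower than input by a log2 change of -0.38 on average (SE 0.141, limma adjusted p = 0.0287), and in normal ganglia by -0.59 (SE 0.199, adjusted p = 0.0292). TRAP was below input in 7 of 8 biosamples, and the exception was biosample 6. The average no longer passed with median-ratio scaling, where the log2 change was -0.003 (adjusted p = 0.992), nor without biosample 4, 5, 7 or 8 (adjusted p = 0.0926, 0.0613, 0.089 and 0.0691), and the normal difference did not pass without biosample 2 or 4 (adjusted p = 0.0557 and 0.154), nor with no filter, median-ratio scaling, quantile normalization or subsample 1 alone (adjusted p = 0.0516, 0.635, 0.0625 and 0.0669). Paclitaxel and normal libraries overlapped in both fractions, and neither difference passed (adjusted p = 0.63 in TRAP and 0.845 in input).

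Catalase, the peroxisomal enzyme that splits hydrogen peroxide, was lower in the pulldown than in input in every biosample. The Cat level in biosamples 1 to 4 was 83.4, 118, 164 and 65.4 CPM in normal input and 24.9, 65.7, 79.8 and 7.87 CPM in normal TRAP. In biosamples 5 to 8 it was 129.8, 147, 136 and 125 CPM in paclitaxel input and 88.25, 93.4, 96.7 and 78.2 CPM in paclitaxel TRAP. The pooled paclitaxel TRAP libraries lay close together, and the normal TRAP libraries were spread over a 10.1-fold range. The TRAP value of biosample 7 is the mean of subsamples at 124.4 and 69.05 CPM. In subsample 1 TRAP was slightly above its input of 123.19 CPM. TRAP was lower by -1.10 on the log2 scale on average (SE 0.202, limma adjusted p = 0.000161) and by -1.62 in normal ganglia (SE 0.285, adjusted p = 0.000255). After paclitaxel the difference of -0.59 (SE 0.285) did not pass (adjusted p = 0.124). Cat in TRAP was 1.43 higher after paclitaxel than in normal biosamples (SE 0.564), which did not pass (adjusted p = 0.211).

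Among the peroxiredoxins, in the main average of both treatments, Prdx1 and Prdx3 were lower in the pulldown and Prdx2, Prdx5 and Prdx6 did not pass in either direction. In normal ganglia Prdx5 passed as lower only without biosample 1, at -1.87 on the log2 scale (limma adjusted p = 0.0319). Prdx1, a cytosolic member that forms a disulfide in its catalytic cycle, was at 729, 702, 764 and 674 CPM in normal input and 483, 638, 570.0 and 186 CPM in normal TRAP. It was at 883, 866, 801 and 828 CPM in paclitaxel input and 598, 543, 483 and 682 CPM in paclitaxel TRAP. Each TRAP library was below its input, and the lowest, normal TRAP of biosample 4, was also the one with the lowest sum of the 10 genes. TRAP was lower by a log2 change of -0.66 on average (SE 0.151, limma adjusted p = 0.00127) and by -0.75 in normal ganglia (SE 0.213, adjusted p = 0.0115), which without biosample 4 was -0.39 and did not pass (adjusted p = 0.126). After paclitaxel the difference of -0.56 (SE 0.213) did not pass (adjusted p = 0.0515). It passed in 5 of 18 settings, namely quantile normalization, subsample 2 alone and without biosample 1, 2 or 4. With median-ratio scaling the average was -0.28 and did not pass (adjusted p = 0.174), and the normal difference did not pass with that scaling or with no filter (adjusted p = 0.334 and 0.0567). Prdx1 was the member whose input groups did not overlap, with paclitaxel above normal, although the difference of 0.24 (SE 0.189) did not pass (adjusted p = 0.526).

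Prdx3, the mitochondrial peroxiredoxin, was at 35.3, 38.0, 25.1 and 19.9 CPM in normal input and at 7.38, 21.5, 3.93 and 6.36 CPM in normal TRAP. It was at 44.2, 36.8, 40.3 and 48.8 CPM in paclitaxel input and at 28.8, 4.59, 19.7 and 29.7 CPM in paclitaxel TRAP. TRAP was below input in all 8 biosamples, with the lowest paclitaxel library in biosample 6. On average TRAP was lower, at -1.48 on the log2 scale (SE 0.334, limma adjusted p = 0.00108), by -1.71 in normal ganglia (SE 0.472, adjusted p = 0.0101) and by -1.26 after paclitaxel (SE 0.472, adjusted p = 0.0482). The paclitaxel call was lost without any 1 of biosamples 3 to 8, for example at -0.77 without biosample 6 (adjusted p = 0.297), and also with a pseudocount of 0.1, no filter, a 5 CPM filter, median-ratio scaling, quantile normalization and subsample 2 alone (adjusted p = 0.0515 to 0.151). The normal call was lost without biosample 3 (adjusted p = 0.0549) and with median-ratio scaling (adjusted p = 0.0535).

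Prdx5, found in mitochondria, peroxisomes and cytosol, showed the second largest change after paclitaxel among the 10 genes in TRAP. Its level was 25.7, 1.30, 10.95 and 3.01 CPM in normal TRAP and 36.9, 42.15, 47.1 and 53.4 CPM in paclitaxel TRAP. In input it was 8.63, 36.7, 21.3 and 5.39 CPM in normal and 26.6, 20.2, 63.2 and 52.8 CPM in paclitaxel biosamples. With the subsamples of biosample 7 averaged, the TRAP groups did not overlap and the input groups did. Subsample 1 of that TRAP library alone was at 0.09 CPM, below every normal TRAP library. The difference was 2.63 in TRAP (SE 0.733) and 1.32 in input (SE 0.490) on the log2(CPM + 1) scale, and neither passed limma (adjusted p = 0.0809 and 0.169), though without biosample 2 the input difference was 1.76 and passed (adjusted p = 0.0348). In TRAP it passed with a filter of 5 CPM (adjusted p = 0.0214), and with subsample 1 alone for biosample 7 it was 1.26 (adjusted p = 0.717). Prdx5 shares 409 bases at its 5′ end, not the 3′ end, with Trmt112 on the other strand, whose TRAP difference was 2.32 (adjusted p = 0.165). The part of that overlap in the Prdx5 level was not tested.

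For Prdx2 and Prdx6 neither the averaged difference between fractions nor that between treatments passed. Prdx2, a cytosolic member abundant in neurons and red cells, ranged from 207 to 427 CPM in normal input, from 136 to 366 CPM in normal TRAP, from 276 to 405 CPM in paclitaxel input and from 362 to 474 CPM in paclitaxel TRAP. Prdx6, the member that works with a single catalytic cysteine and glutathione, ranged from 64.7 to 129 CPM in normal input, from 53.3 to 88.8 CPM in normal TRAP, from 60.0 to 99.3 CPM in paclitaxel input and from 77.6 to 151 CPM in paclitaxel TRAP. The averaged difference of TRAP from input was 0.02 for Prdx2 (SE 0.131, limma adjusted p = 0.913) and 0.03 for Prdx6 (SE 0.199, adjusted p = 0.896). Under median-ratio scaling Prdx2 passed as higher in TRAP in that average, at 0.40 (adjusted p = 0.0278), and also in paclitaxel biosamples alone. After paclitaxel, TRAP levels differed by 0.61 for Prdx2 (SE 0.298, adjusted p = 0.326) and 0.69 for Prdx6 (SE 0.311, adjusted p = 0.279), and neither passed. Prdx2 shares 351 bases at its 3′ end with Junb on the other strand.

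Across the 10 genes, 1 passed as higher and 5 as lower in TRAP in the average of both treatments, and 4 did not pass. Of all 14214 genes tested, 7.64% passed as higher, 41.6% as lower and 49.2% in either direction, so that these counts lie near the background. With median-ratio scaling 2 of the 10 passed as higher, Sod1 and Prdx2, and 2 as lower, Cat and Prdx3. The median difference was -0.38 over the 10 genes and -0.62 over all genes tested. The median over all genes was -0.32 with median-ratio scaling and 0.03 with quantile normalization, and the share of higher genes among those that passed went from 15.5% to 35.6% and 50.1%. Relative to the median of all genes, Sod1 stood 1.55 higher, Glo1, Prdx2 and Prdx6 stood 0.58 to 0.66 higher, and Cat and Prdx3 stood at -0.48 and -0.86. Of the other genes that passed as lower, Prdx1 and Hagh stood near that median, at -0.036 and -0.075, and Sod2 stood 0.239 above it. Prdx5, which did not pass, also stood 0.239 above it. The 3 genes below input in all 8 biosamples compare with 20.8% of all genes. In normal ganglia 4 of the 9 tested members passed as lower and 0 as higher (background 24.7% and 5.09%, or 29.8% in either direction), with 1 lower, Cat, and 1 higher, Sod1, under median-ratio scaling and 2 lower, Cat and Prdx3, with no filter. Likewise, after paclitaxel 1 passed as higher, Sod1, and 1 as lower, Prdx3 (background 4.92% and 23.0%, or 27.9% in either direction). With median-ratio scaling 2 passed as higher there, Sod1 and Prdx2, and 0 as lower. With a pseudocount of 0.1, no filter, a 5 CPM filter or no replicate block, Sod1 alone passed.

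After paclitaxel, 1 of the 9 tested members, Sod1, rose in TRAP and 0 fell, where 1.33% of all genes tested rose, 0.492% fell and 1.82% passed in either direction. With unadjusted limma p-values under 0.05, Glo1, Cat, Prdx5 and Prdx6 joined it, which makes 5 of 9, where 16.9% of all genes tested did so in either direction. In TRAP, 4 of the 10 genes had pooled paclitaxel libraries all above the normal ones (Glo1, Hagh, Sod1 and Prdx5), against 6.73% of all genes tested. For Prdx5 this holds only with the subsamples of biosample 7 averaged, at 0.09 and 94.11 CPM. Hagh is among the 4 by choice. The number of all genes that passed in this comparison rested on single biosamples, at 259 with all of them and 0 to 491 with 1 left out, with 0 without biosample 2 and 0 without biosample 8. The median difference was 0.88 over the 10 genes and 0.17 over all genes. Of the genes that passed in TRAP, 73.0% were higher after paclitaxel, 46.4% with median-ratio scaling and 58.7% with quantile normalization.

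In input, 0 of the 9 tested members passed limma, where 1.46% of all genes tested rose, 0.183% fell and 1.64% passed in either direction. Before adjustment, 2 of the 9 had a limma p under 0.05, Prdx3 and Prdx5, a share near the 19.1% of all genes tested. Paclitaxel input libraries all stood above normal ones for 1 of the 10 genes, Prdx1, against 8.16% of all genes. The median difference was 0.38 over the 10 genes and 0.14 over all genes. Among genes that passed in input 88.8% were higher, or 75.8% with median-ratio scaling. The change of pulldown relative to input between treatments, by which Hagh was chosen, ran from 0.19 for Prdx1 (SE 0.301) to 2.61 for Hagh. It was 1.31 for Prdx5 (SE 0.840), 1.03 for Cat (SE 0.403), 0.82 for Prdx6 (SE 0.398) and 0.81 for Sod1 (SE 0.407). The median over all genes tested was 0.02, and these changes of the members were not tested. For Prdx1 and Prdx5 the sign turned under some of the settings, down to -0.18 and -0.01.

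**Figure D3:**
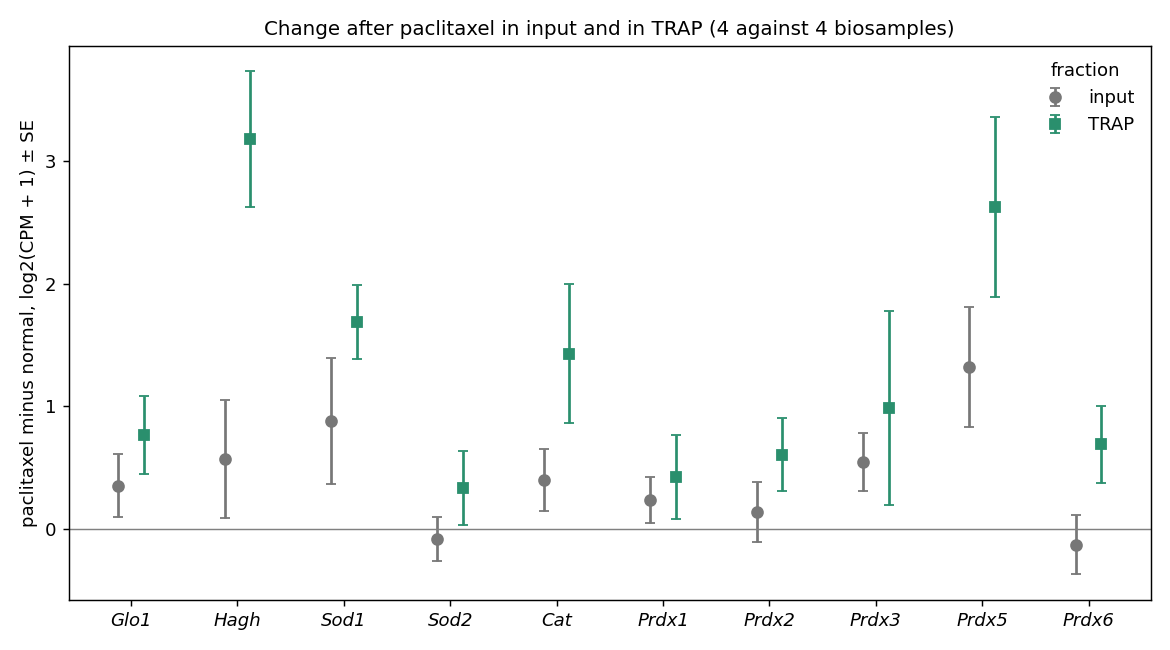
Paclitaxel minus normal on the log2(CPM + 1) scale for each of the 10 genes, in input (circles) and TRAP (squares), as the limma estimate with its standard error, 4 biosamples against 4. The TRAP estimate exceeds the input estimate by the most for Hagh, by choice, at 3.18 against 0.57. Sod1 in TRAP at 1.69 is the estimate that passed among the tested ones.

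Among 54 other genes of the same families, the thioredoxin system, glutathione metabolism and the NADPH and Nrf2 response, 51 were tested. In the average of both treatments 6 were higher in TRAP and 18 lower, against 7.64% and 41.6% of all genes tested, a background that holds for each list. Among the 12 tested relatives and direct partners of the 10 genes, 1 was higher and 4 lower, and Park7, which encodes the stress protein DJ-1, was higher by 0.69 (SE 0.142, limma adjusted p = 0.000525). Of 12 genes of the thioredoxin system, 4 were higher and 2 lower. Txnip, the inhibitor of thioredoxin, was lower by a log2 change of -1.90 (SE 0.257, adjusted p = 5.51e-06). Of 15 genes of glutathione synthesis and transfer 0 were higher and 7 lower, with the microsomal transferase gene Mgst1 at -2.89 (SE 0.444, adjusted p = 2.58e-05) and Gclm, the modifier subunit of the enzyme that begins glutathione synthesis, at -1.79 (SE 0.299, adjusted p = 6.38e-05). Of 12 genes of the NADPH and Nrf2 response, 1 was higher and 5 lower.

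By treatment, 4 of these 51 genes were higher and 12 lower in normal TRAP, near the background of 5.09% and 24.7%. Gclm stood at a log2 change of -2.76 there (limma adjusted p = 6.08e-05), and Txnrd1, the cytosolic thioredoxin reductase, was higher by 1.15 (adjusted p = 0.0014). After paclitaxel 5 were higher and 9 lower, where 4.92% and 23.0% of all genes were. Among them were Glrx3, a glutaredoxin that handles iron-sulfur clusters, higher by 0.90 (adjusted p = 0.00657), and Nfe2l2, which encodes Nrf2, at a log2 change of -1.29 (adjusted p = 0.0199).

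Between treatments, 3 of the 51 genes rose in TRAP and 0 fell, where 1.33% and 0.492% of all genes tested did, and 0 passed in input, where 1.46% rose and 0.183% fell. Srxn1, the sulfiredoxin that repairs overoxidised peroxiredoxins, rose by 1.497 (SE 0.251, limma adjusted p = 0.0135). Txn1, the thioredoxin that recharges peroxiredoxins, rose by 1.38 (SE 0.298, adjusted p = 0.0337), and Glrx3 rose by 1.45 (SE 0.328, adjusted p = 0.0413). With no filter, without biosample 2 or without biosample 8, 0 of all genes passed in this comparison, these 3 included. The median difference over the 12 tested genes of the thioredoxin system was -0.48 in TRAP, below 0, whereas over the 51 genes it was 0.29 and over all genes 0.17.

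**Figure D4:**
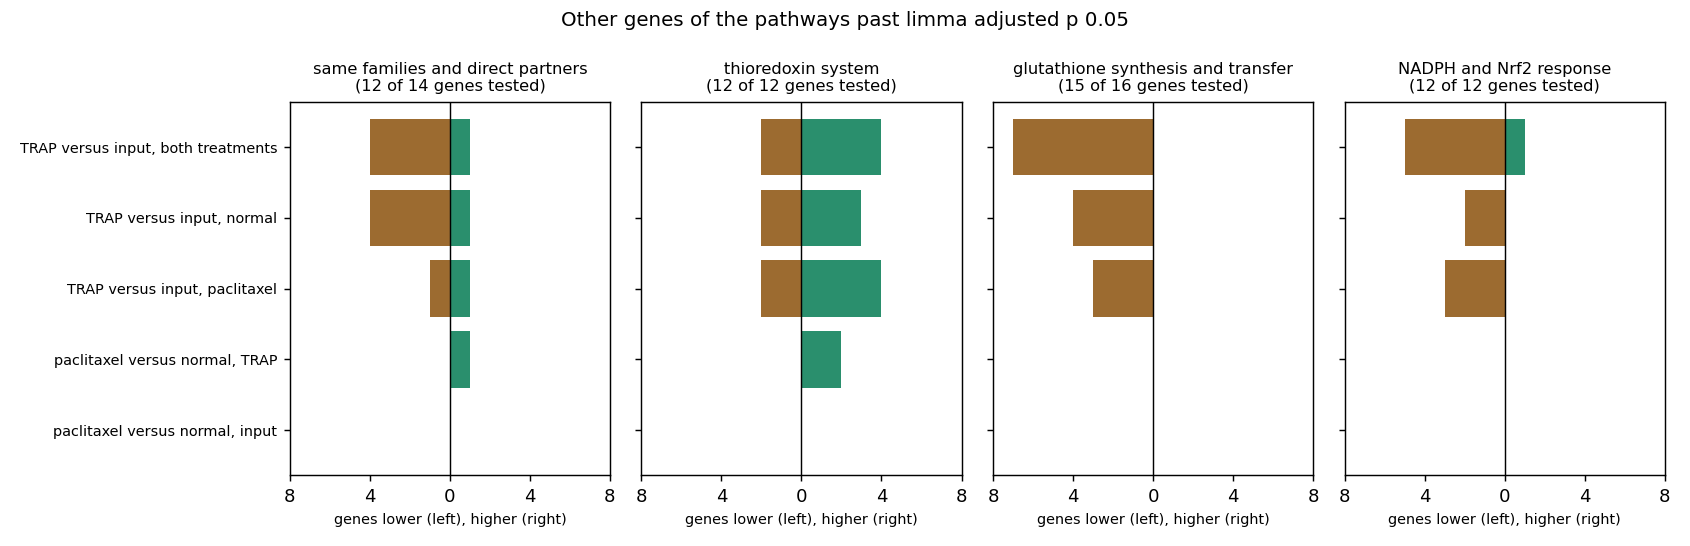
Number of genes in 4 related lists that passed limma as lower (bars to the left) or higher (bars to the right), by comparison, with the number tested in each panel title. In the average of both treatments TRAP was lower for 7 and higher for 0 of 15 genes of glutathione synthesis and transfer, and lower for 2 and higher for 4 of 12 genes of the thioredoxin system.

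The genes whose level followed Hagh most closely over the 16 pooled libraries, by Pearson correlation of log2(CPM + 1), were Ndufa8 (r = 0.94), Rpl15 (r = 0.94), Mrpl42 (r = 0.93), Ptcd2 (r = 0.93) and Fkbp1b (r = 0.92). These values are descriptions over libraries that share the grouping by treatment and fraction and come in pairs from 1 extract. Ndufa8, a subunit of mitochondrial complex I, ranged from 11.7 to 32.0 CPM in normal TRAP and from 60.2 to 117 CPM in paclitaxel TRAP. Of the 10 genes, Glo1 came nearest to Hagh with r = 0.75, and Sod1 had r = 0.65. Hagh overlaps Fahd1, on the other strand, for 1473 bases inside Hagh (24848892 to 24850364), away from the 3′ end of Hagh at 24864450. Fahd1 in TRAP differed between treatments by a log2 change of -1.98, in the other direction, which did not pass (adjusted p = 0.0592).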

How the data were processed

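RNA of input and TRAP fractions of mouse dorsal root ganglia was measured by 3′ end sequencing in 18 libraries, 4 biosamples per group in 4 groups. Per the submitters' processing notes the tools named were Cufflinks 2.2.1, Bowtie2 2.2.9, TopHat2 2.1.1 and FastQC 0.11.5, on genome build GRCm38.p4, and the strand setting is not given in the sources used here. The file headers name the deposited values TPM, but these are CPM. In each column 98.174% to 99.663% of values under 8 CPM equal a whole number of times a library's own step (tolerance 0.0051 CPM). By chance 4.351% to 33.367% would do so, depending on the library. Each column also has the same total, which would hold for TPM too. The comparisons were planned for TPM and the same steps were applied. The 2 columns in which the authors merged subsamples were not used. The 2 subsamples of biosample 7 were averaged.

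Genes at 1 CPM or more in at least 4 of 16 pooled libraries were kept, 14214 of 22021, and log2(CPM + 1) was fitted with limma 3.58.1 in R 4.3.3, with a mean-dependent prior, two-sided p-values and Benjamini-Hochberg adjustment over all tested genes at 0.05. Fold changes on this scale understate changes of low genes. TRAP was compared with input with biosample as a block, since the series text pairs both fractions of 1 homogenate. Paclitaxel was compared with normal in 8 TRAP and in 8 input libraries apart. The scripts were tested on simulated data. Summaries used Python 3.11.15 and pandas 2.3.3.

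The members and gene lists were chosen with earlier results of these data known. All 10 members are named, with up to 4 passing genes of lowest adjusted p per comparison from the 4 related lists and the 5 genes most correlated with Hagh. Predicted genes, bare identifiers and genes with a mean under 5 CPM in every group were left out of that correlation ranking. Alternatives were other pseudocounts, filters, scalings, either subsample alone, no block and each biosample left out. Positions are from GENCODE vM21 on GRCm38.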

Additional observations from a re-analysis of the deposited data

Results flagged for a closer look

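Hagh in TRAP was below input in each of the 4 normal biosamples and above it in each of the 4 paclitaxel biosamples. The groups thus moved in opposite directions, with a change of pulldown relative to input between treatments of 2.61 on the log2(CPM + 1) scale. The difference was not tested, because it is the value for which Hagh was chosen. Across all genes tested 0.732% showed the same change of sign in all 8 biosamples, among them the nociceptor markers Calca and Trpv1. In the 40 sets of 4 libraries examined, 10 genes in 4 groups, 0 had a library that stood apart from the other 3 by Dixon's criterion.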

How the results depend on the processing

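Sod1, Cat and Prdx3 passed limma in the average of TRAP against input under all 18 settings, the main one included. Directions turned for genes that had not passed: in that average, Glo1 (0.34 with median-ratio scaling, 0.044 with quantile normalization, -0.201 to 0.053 with 1 biosample left out), Prdx2 (-0.011 with quantile normalization, -0.002 with subsample 2 alone, -0.055 to 0.084 with 1 biosample left out), Prdx5 (0.16 with quantile normalization, -0.799 to 0.118 with 1 biosample left out, highest without biosample 2) and Prdx6 (-0.021 with subsample 1 alone, -0.09 to 0.167 with 1 biosample left out). With median-ratio scaling, normal TRAP stood above input by 0.19 for Glo1, 0.23 for Prdx2 and 0.062 for Prdx6, and paclitaxel TRAP by 0.15 for Sod2; with subsample 1 alone the latter comparison gave -1.04 for Prdx5. In input, paclitaxel against normal turned for Prdx2 without biosample 4 (-0.041 to 0.305 with 1 left out) and for Prdx6 without biosample 3 or 6 (-0.27 to 0.058). Of all genes tested, 4233 passed in normal TRAP against input, 2695 with quantile normalization, 2787 with subsample 1 alone. In paclitaxel against normal TRAP 259 passed, 0 with no filter, 729 with a 5 CPM filter, 523 with quantile normalization, 125 with subsample 1 alone. In input 233 passed, 0 with no filter and 107 with quantile normalization. In the change of pulldown relative to input 27 passed, 13 with a pseudocount of 0.1, 0 with no filter, 6 with quantile normalization, 5 and 17 with subsample 1 or 2 alone. With 1 biosample left out these counts ranged from 2327 to 4356 in normal and 2049 to 4377 in paclitaxel TRAP against input, 0 to 491 in paclitaxel against normal TRAP, 0 to 831 in input, and 0 to 86 in the change of pulldown relative to input. With no replicate block, the last count was 0 and Hagh and Sod2 in the average (adjusted p = 0.146 and 0.0857), Sod2 and Prdx1 in normal (adjusted p = 0.0896 and 0.0537) and Prdx3 in paclitaxel TRAP against input (adjusted p = 0.0886) no longer passed. The block changed no other member's call. The cause of these shifts was not tested. A count model (edgeR, DESeq2) was not run because whole reads could not be recovered for all libraries. The members' pooled levels, 1.30 CPM or more, lay above the 3-read floors of 0.0917 to 0.7032 CPM. Before pooling, Prdx5 in TRAP of biosample 7 subsample 1, at 0.09 CPM, lay below the floor of that library, 0.2813 CPM.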
